A study of Mus musculus with 14 samples.

Results

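The nuclear genes for the subunits of the mitochondrial oxidative phosphorylation complexes were followed in lymphocytes sorted from mouse bone marrow. Members were the protein-coding genes whose symbols begin with Ndufa, Ndufab, Ndufb, Ndufc, Ndufs or Ndufv and end in a number, Sdha to Sdhd, the Uqcr genes, Cyc1, the Cox4 to Cox8 genes and the Atp5 genes, without pseudogenes. The rule found 85 genes among 46078 gene identifiers, of which 37 belonged to complex I, 4 to complex II, 9 to complex III, 18 to complex IV and 17 to complex V. It left out 7 pseudogenes. The filter on low counts passed 83 members, and Cox6b2 and Cox7a1 did not pass it. Choosing members by symbol places Ndufa4, now assigned to complex IV, under complex I, and counts Cox7a2l, which helps to join complexes into supercomplexes, under complex IV.

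The study compared mice labelled Il-15-flox/KO, which served as controls, with Vav-Cre;Il-15-flox/KO mice (cKO). All mice therefore carried 1 knockout allele of the gene for interleukin 15, the cytokine that sustains natural killer (NK) cells. Vav-Cre deletes in hematopoietic cells and what they give rise to, so most other cells, such as stroma, keep the floxed allele. All were C57BL/6 mice aged 8 weeks. Immature NK cells (iNK) and immature type 1 innate lymphoid cells (iILC1) were sorted at 2000 cells a sample, and bulk RNA-seq was done on both types, with 3 control and 4 cKO libraries of each. Whether replicates are different mice is not stated in the labels, and p-values therefore measure only the spread between these samples, which may be technical. Fewer cells of a type and less RNA per cell cannot be told apart in bulk samples.

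Oxidative phosphorylation makes most of the ATP of a resting lymphocyte in the inner mitochondrial membrane. Complex I takes electrons from NADH and complex II from succinate, complex III passes them to cytochrome c, and complex IV hands them to oxygen. Complexes I, III and IV pump protons as they do so, and complex V, the ATP synthase, lets the protons back in to make ATP. Complex II is built from nuclear genes alone, whereas the other complexes also hold subunits encoded in mitochondrial DNA.

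Levels are CPM (read counts relative to the library total) scaled with TMM factors, a correction for differences in RNA composition between libraries. Differences are log2 fold changes with their standard errors (SE). Adjusted p-values come from edgeR's quasi-likelihood F test, two-sided, with Benjamini-Hochberg adjustment over all 26990 genes tested, and a gene was called at an adjusted p below 0.05. Total counts were 3512796 to 12572326 per library, and lowest in control iILC1, at 3512796 to 4933284. Receptor genes for odours and pheromones (1343 Olfr and Vmn genes), which lymphocytes are not known to use, served as a measure of background reads. They summed to 1815 ± 573 CPM (n = 3, SD) in control iNK, 2099.9 ± 444 CPM (n = 4, SD) in cKO iNK, 2682 ± 468 CPM (n = 3, SD) in control iILC1 and 2388 ± 586 CPM (n = 4, SD) in cKO iILC1. Control iNK replicate 1 and cKO iILC1 replicate 1 lay lowest on the first principal component, had TMM factors of 0.801 and 0.803, and had the lowest receptor sums, 1386 and 1560.4 CPM. The targeted gene Il15 averaged 9.85 ± 1.52 CPM (n = 3, SD) in control iNK, 10.6 ± 1.55 CPM (n = 4, SD) in cKO iNK, 12.9 ± 1.07 CPM (n = 3, SD) in control iILC1 and 18 ± 5.62 CPM (n = 4, SD) in cKO iILC1. A count over the whole gene does not resolve the floxed part, so it does not check the deletion. In control iNK and control iILC1, 5 ILC1 markers summed to 69.9 to 92.1 and 770.2 to 1232 CPM. In cKO mice these sums were 74.9 to 99.4 and 1359 to 2349 CPM. The sums of 7 NK markers overlapped between the types, at 6143 to 9925 and 5606 to 7955 CPM in control mice. They also overlapped in cKO mice, at 5377 to 8083 and 6311 to 11224 CPM. Il7r averaged 8.37 ± 2.59 CPM (n = 3, SD) in control iNK and 408 ± 61.2 CPM (n = 3, SD) in control iILC1, and Eomes 731 ± 215 and 132 ± 17 CPM. Ncr1 alone of the NK markers had the higher mean in control iILC1, 1717 against 1500.2 CPM.

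Most members were well above background. Per kilobase of exon, 77 of 85 members exceeded the 95th percentile of the receptor genes (3.56 to 4.84 CPM per kb, by group) in all 4 groups. Complex V held the members with the highest level per kilobase, Atp5b and Atp5a1, which encode the beta and alpha subunits of the catalytic head, at means of 216 and 208 CPM per kb over all libraries. In complex IV these were Cox8a (193 CPM per kb) and Cox6b1 (150.2 CPM per kb), small subunits around the catalytic core. Ndufa4 (133 CPM per kb) and Ndufa1 (99.7 CPM per kb) led complex I as the rule defines it. Sdha (110.4 CPM per kb), the flavoprotein that oxidises succinate, and the membrane anchor Sdhd (101 CPM per kb) led complex II. Cyc1 (93.7 CPM per kb), cytochrome c1, and the core protein Uqcrc1 (76.3 CPM per kb) led complex III.

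The members that did not exceed that background in all groups were mostly isoforms used in other tissues. Cox4i2, Cox7b2, Cox8b, Cox6b2 and Cox7a1 exceeded it in 0 groups. Cox7a1, an isoform of heart and skeletal muscle, had 0 to 4 counts in a library, and Cox6b2, a testis isoform, had 0 to 21. Cox8c exceeded the background in control iNK alone, at 3.58 CPM per kb against 3.56. Cox6a2 exceeded it in both iNK groups and in neither iILC1 group. Ndufb2 also stayed under it, at 2.84 to 4.03 CPM per kb by group, with an annotated exon length of 5628 bases, which lowers a level per kilobase.

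Promoter sequence was read for 67 of 85 members from RefSeq (build GRCm38.p6), as windows of 250 bases before to 50 bases after the start. Nuclear respiratory factor 1 (NRF1) is a transcription factor known to bind genes of the respiratory chain, and the letters GCGCATGCG of its site (or CGCATGCGC on the other strand) were found in 8 of 72 members' windows (11.1%) and in 1.75% of all 32851 windows. The letters CCGGAAGT (or ACTTCCGG on the other strand), a core of ETS family sites, were found in 6.94% against 3.89%, and AAGATGGCG (or CGCCATCTT), part of a YY1 site, in 9.72% against 1.4%. None of the 3 motifs contains another, and the NRF1 letters overlap those of their own other strand. A match is a description of these letters, not of a bound site. NRF1 letters on both strands overlap to a palindrome upstream of Cox6a1. The upstream bases of 3 members that were lower in control iILC1 than in control iNK are shown on the strand of the gene, with the NRF1 letters in capitals. They leave out any base inside the gene's own annotated span, which for Cox6a1 removed the 23 bases next to its RefSeq start. Cox6a1 holds the NRF1 letters 153 to 162 bases before that RefSeq start (chr5:115348982-115349208, minus strand, also inside the span of the predicted gene Gm42903). Ndufs6 (chr13:73328543-73328732, minus strand) and Ndufs8 (chr19:3912775-3913024, minus strand) do not hold them in these bases.
Cox6a1: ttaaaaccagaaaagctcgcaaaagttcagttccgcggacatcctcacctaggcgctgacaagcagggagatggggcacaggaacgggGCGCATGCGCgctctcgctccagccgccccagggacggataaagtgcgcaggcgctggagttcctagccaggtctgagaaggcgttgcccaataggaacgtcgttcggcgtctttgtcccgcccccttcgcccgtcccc
Ndufs6: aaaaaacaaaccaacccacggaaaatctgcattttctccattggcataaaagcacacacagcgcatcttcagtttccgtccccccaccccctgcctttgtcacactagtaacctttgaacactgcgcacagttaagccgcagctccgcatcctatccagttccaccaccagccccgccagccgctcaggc
Ndufs8: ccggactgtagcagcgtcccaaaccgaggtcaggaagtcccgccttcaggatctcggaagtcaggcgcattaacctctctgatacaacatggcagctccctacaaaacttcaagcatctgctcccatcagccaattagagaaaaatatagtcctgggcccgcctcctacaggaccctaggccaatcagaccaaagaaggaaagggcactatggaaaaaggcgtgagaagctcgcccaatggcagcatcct

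In control mice, nuclear subunit RNA was lower in iILC1 than in iNK cells across all 5 complexes. All members together summed to 9493 ± 738 CPM (n = 3, SD) in control iNK and 5399 ± 981 CPM (n = 3, SD) in control iILC1, 1.76-fold less, and made up 0.828% and 0.588% of all counts. The groups did not overlap: the iNK libraries lay between 9044 and 10345 CPM and the iILC1 libraries between 4499.9 and 6445 CPM. In cKO mice the sums were closer, at 7483 ± 1339 CPM (n = 4, SD) in iNK and 6317 ± 1837 CPM (n = 4, SD) in iILC1, and the libraries overlapped. Of the cKO iILC1 libraries, replicate 1 was at 8835 CPM and the others at 4929 to 6530.4 CPM. Of the cKO iNK libraries, replicate 4 was at 9272 CPM and the others at 6032 to 7396 CPM.

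**Figure D1:**
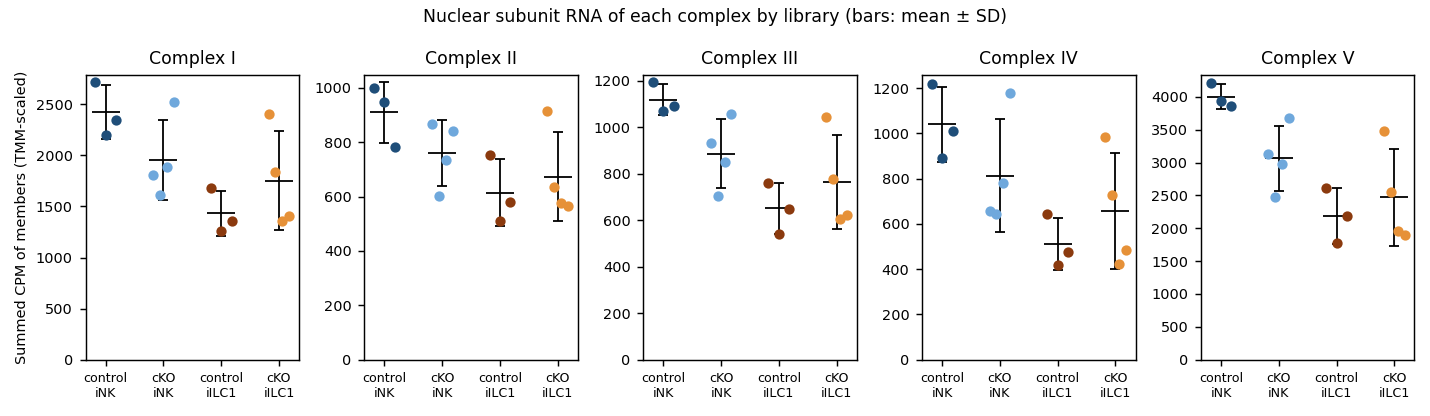
Summed TMM-scaled CPM of the members of each complex (vertical axis, from 0 and scaled separately by complex) in each library, by group; points are libraries and bars the mean ± SD. The 3 control iNK libraries lie above the 3 control iILC1 libraries in every complex, and cKO iNK replicate 4 and cKO iILC1 replicate 1 lie highest in their groups for complexes I, III, IV and V.

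The sums by complex differed in size. Complex IV summed to 1039.7 ± 166 CPM (n = 3, SD) in control iNK and 513 ± 115 CPM (n = 3, SD) in control iILC1, a ratio of 2.03. The ratios were 1.83 for complex V (4002 ± 189 and 2187 ± 421 CPM), 1.72 for complex III (1119.7 ± 66.5 and 651 ± 110.1 CPM) and 1.69 for complex I (2422 ± 266 and 1432 ± 218 CPM). Complex II, led by Sdha, had the smallest ratio, 1.48, with 909 ± 113 and 615 ± 125 CPM. The differences between these ratios were not tested. As mean shares of all counts, without TMM factors, the control groups lay closer together. These shares in iNK and iILC1 were 0.0907% and 0.0556% for complex IV, 0.349% and 0.238% for complex V, and 0.0978% and 0.071% for complex III. They were 0.211% and 0.156% for complex I and 0.0788% and 0.0668% for complex II.

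The comparison of the cell types in control mice called 25 of 83 members lower in iILC1 and 0 higher, where 3.91% of all genes tested were called either way and 3.00% were called lower. Among genes outside the list with a mean of at least 20 CPM, 7.58% were called lower. The members' median log2 fold change was −0.86, beside 0.16 over all genes and −0.36 over genes of at least 20 CPM. Negative estimates were found for 78 of 83 members and for 81.9% of genes of at least 20 CPM. The libraries of both groups did not overlap, with iILC1 lower, for 72 of 83 members, against 13.0% of all genes tested and 31.9% of genes of at least 20 CPM. Control iILC1 libraries also had fewer counts and more receptor background than control iNK libraries (2149.7 to 3025 against 1386 to 2466 CPM). With the log2 receptor sum as a covariate the median was −0.49 and 3 members remained called lower (Cox6a2, Ndufs8 and Atp5g3), where 1.78% of all genes were. With limma voom and cyclic loess scaling, added after seeing the data, 5 were called (Cox6a2, Ndufs6, Ndufs8, Atp5o and Cox4i1), where 1.60% of all genes were called lower, and the median was −0.58. Markers of other cells moved as well. From control iNK to control iILC1, 7 myeloid genes summed to 94 to 206 and 37.7 to 46.2 CPM, 3 genes of stroma and endothelium to 15 to 34.1 and 47.4 to 71 CPM, and 8 genes of B and plasma cells to 36.2 to 54.5 and 65 to 66.4 CPM, each without overlap. The sum of 3 dendritic genes, also without overlap at 255 to 528 and 175 to 246 CPM, was mostly Itgax, at 418 and 194 CPM, while Siglech was at 3.2 and 6.1 CPM. The sums of 6 erythroid genes, 6 T-cell genes, 2 megakaryocyte genes and 2 progenitor genes overlapped. Most of the T-cell sum was Trbc1, at 443 and 339.6 CPM, whereas Cd3e was at 3.31 ± 1.46 CPM (n = 3, SD) in control iNK and 64 ± 20.6 CPM (n = 3, SD) in control iILC1. Cd3g averaged 26 and 64.1 CPM and Trac 17 and 45.9 CPM. The part of these cells in the members' values was not tested.

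**Figure D2:**
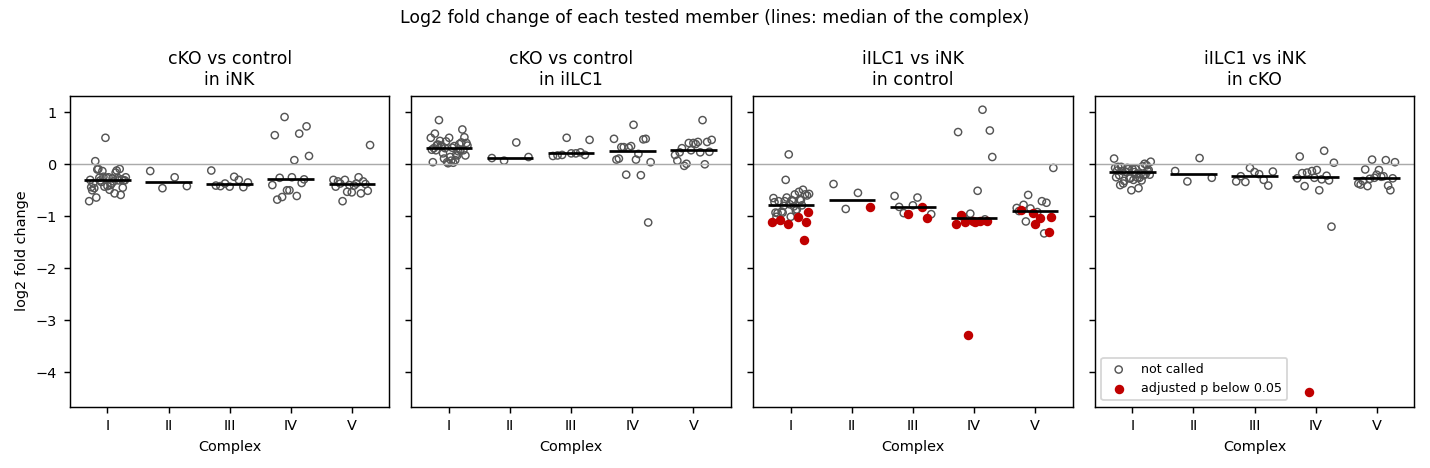
Log2 fold change (vertical axis) of each of the 83 tested members by complex in 4 comparisons; each point is 1 gene, filled red points passed an adjusted p of 0.05 and lines are medians of the complex. Between cell types in control mice 25 members are filled, all below 0, and in cKO mice Cox6a2 alone is.

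Complex I, the entry point for NADH, had 7 of 37 members lower and a median of −0.79. Ndufs6, a zinc-binding subunit of the matrix arm (chromosome 13, 73319874 to 73328542, minus strand, mm10), was at 46.1, 27.8 and 43.2 CPM in the control iNK libraries and at 11.7, 16.3 and 14.7 CPM in the control iILC1 libraries. Every iNK value was above every iILC1 value. Its log2 fold change was −1.45 (adjusted p = 0.00697, SE 0.318). Its call held in all 6 fits that left out 1 library, and the estimate was −1.17 (adjusted p = 0.056) with the receptor covariate. Ndufs8, which carries iron-sulfur clusters on the way to ubiquinone (chromosome 19, 3908870 to 3912717, minus strand), was at 95.3, 86.6 and 103 CPM in control iNK and at 50.6, 37.6 and 44.5 CPM in control iILC1, again without overlap. The log2 fold change was −1.11 (adjusted p = 0.01, SE 0.253), and −0.82 with the receptor covariate (adjusted p = 0.036). The other members called in complex I were Ndufb11, Ndufv2, Ndufa1, Ndufa4 and Ndufc2, with log2 fold changes of −0.92 to −1.14. The core subunits Ndufs1 (−0.53, adjusted p = 0.185) and Ndufv1 (−0.60, adjusted p = 0.11) did not pass. Ndufb2, with 18.7, 14.6 and 14.6 CPM in iNK and 20.2, 16.5 and 18.1 CPM in iILC1, was the 1 member of complex I with a positive estimate (0.19, adjusted p = 0.683).

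Complex II joins the chain to the citric acid cycle, and 1 of its 4 members was called. Sdhd, a membrane anchor (chromosome 9, 50596338 to 50603849, minus strand), was at 193, 183 and 161 CPM in control iNK and at 124, 86.9 and 92.3 CPM in control iILC1. The values did not overlap, and the log2 fold change was −0.83 (adjusted p = 0.036, SE 0.227). Sdhb, the iron-sulfur subunit, had a larger estimate with an adjusted p of 0.0512 (−0.86, SE 0.254). Sdha was at 553, 519.5 and 394 CPM in control iNK and at 458, 296 and 369 CPM in control iILC1. These ranges overlapped, and its estimate of −0.38 (SE 0.251, adjusted p = 0.376) was the nearest to 0 in the complex. With the receptor covariate the Sdha estimate changed sign, to 0.05.

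Complex III had 3 of 9 members lower and a median of −0.82. Uqcrh, the hinge protein that holds cytochrome c1 (chromosome 4, 116066965 to 116075071, minus strand), was at 89.5, 54.5 and 63.8 CPM in control iNK and at 34.2, 26.8 and 40.5 CPM in control iILC1. All 3 iNK values were higher, with a log2 fold change of −1.03 (adjusted p = 0.0385, SE 0.287). Uqcrb (−0.95, adjusted p = 0.0401) and the Rieske iron-sulfur protein Uqcrfs1 (−0.82, adjusted p = 0.0489) also passed. Uqcrc1 (−0.79, adjusted p = 0.0619) and Cyc1 (−0.61, adjusted p = 0.152) did not. None of the 3 called members passed with the receptor covariate, at adjusted p of 0.143 to 0.319.

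Complex IV, cytochrome c oxidase, had 8 of 16 tested members lower and the lowest median, −1.04. With the receptor covariate its median was −0.56, close to that of complex V (−0.55). The medians of complexes I, II and III were then −0.46, −0.31 and −0.49. Cox4i1, the common isoform of subunit 4 (chromosome 8, 120668222 to 120674207, plus strand), was at 215, 175 and 176 CPM in control iNK and at 108, 68.2 and 79.1 CPM in control iILC1. The iILC1 values were all lower, with a log2 fold change of −1.15 (adjusted p = 0.017, SE 0.283), and −0.67 (adjusted p = 0.0908) with the receptor covariate. Cox7b (chromosome X, 106015700 to 106022450, plus strand) was at 72, 62.2 and 69.6 CPM in control iNK and at 34.2, 34.4 and 26.7 CPM in control iILC1, a log2 fold change of −1.10 (adjusted p = 0.0138, SE 0.261). The other called members were Cox6a1, Cox6a2, Cox6c, Cox7a2, Cox8a and Cox5a. Cox5b had an estimate of −1.01 with an adjusted p of 0.0658. The isoforms of other tissues, Cox4i2 (0.62), Cox7b2 (1.05), Cox8b (0.65) and Cox8c (0.14), had positive estimates with adjusted p of 0.397 to 0.9, at levels near the receptor genes.

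Complex V had 6 of 17 members lower and a median of −0.90. Atp5g3, 1 of 3 genes that encode the same mature c subunit of the rotor ring (chromosome 2, 73908447 to 73911326, minus strand), was at 258, 216 and 248 CPM in control iNK and at 126, 94.6 and 105 CPM in control iILC1. The groups did not overlap and the log2 fold change was −1.15 (adjusted p = 0.0108, SE 0.266), or −0.80 (adjusted p = 0.0336) with the receptor covariate. Of the other c subunit genes Atp5g2 was called (−0.93, adjusted p = 0.0361) and Atp5g1 was not (−0.85, adjusted p = 0.056). Atp5o, the stalk subunit that confers sensitivity to oligomycin, was at 115, 98.1 and 97.1 CPM in control iNK and at 59.4, 40.9 and 53.1 CPM in control iILC1 (−1.02, SE 0.243, adjusted p = 0.0138). The remaining called members were Atp5mpl, Atp5c1 and Atp5j. Atp5b (−0.90, adjusted p = 0.0504) and Atp5a1 (−0.84, adjusted p = 0.066), the subunits with most RNA per kilobase, were on the other side of the threshold. Atp5k had the lowest estimate in the complex (−1.33, adjusted p = 0.084), and Atp5s, known as factor B, the highest (−0.07, adjusted p = 0.927). Exon bases shared with another gene, at which reads cannot be told apart without strand, were found for 22 of 85 members, among them Atp5o, Cox4i1 and Atp5j.

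How many members passed depended on single libraries, as did the number of all genes called. The count was 2 without control iILC1 replicate 2 or replicate 3, where 0.875% and 1.10% of all genes were called lower. It was 3 without control iNK replicate 1 (1.20% of all genes) and 36 without control iILC1 replicate 1 (2.96%), beside 25 and 3.00% with all libraries. The members' median stayed between −0.75 and −1.03 in the 6 fits that left out 1 library. Leaving out both libraries that lay apart on the first principal component gave 19 called members and a median of −0.75. Of all genes 2.65% were called lower in that fit, and 1.89% with total counts only. Scaling by total counts alone moved the median of all genes from 0.16 to 0.49 and that of the members to −0.53, with 13 called. The members' median minus that of all genes was −1.03, beside −1.02 with TMM factors. A change of scaling factors shifts all genes by about the same amount, so this difference cannot test the scaling.

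**Figure D3:**
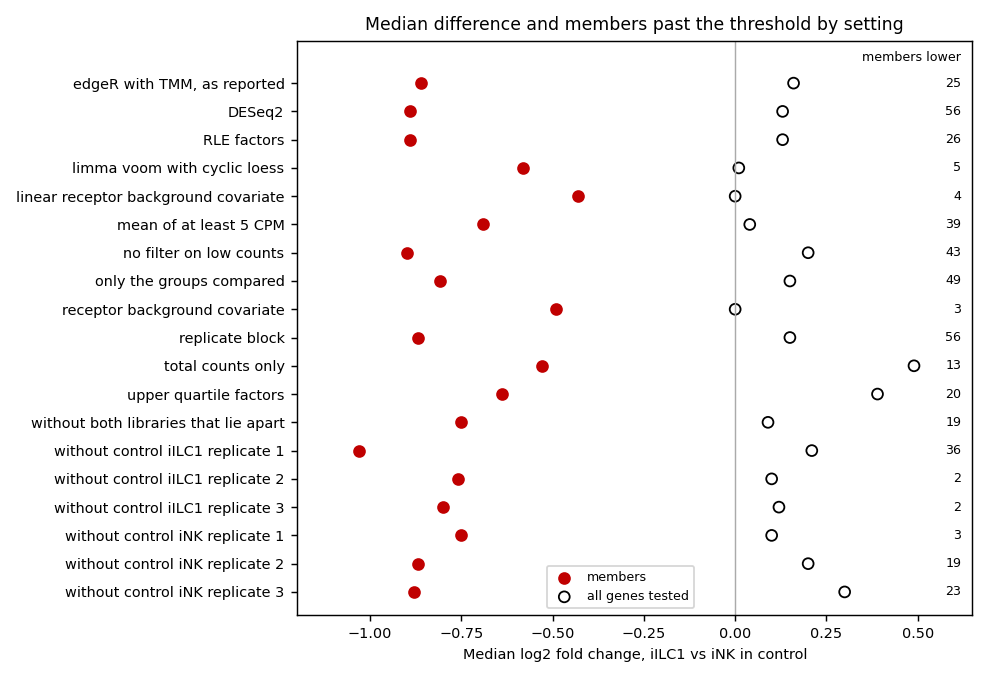
Median log2 fold change of iILC1 against iNK in control mice (horizontal axis) under each setting (rows), for the members (filled red) and for all genes tested (open), with the number of members called lower at the right. The members' median is below 0 in every setting and the number called runs from 2 to 56. Over these settings 0.875% to 7.27% of all genes tested were called lower.

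Across libraries the members' sum was mostly lower where the receptor sum was higher. In control iILC1, replicate 1 had the least receptor RNA (2149.7 CPM) and the most subunit RNA (6445 CPM), and replicate 2 the most receptor RNA (3025 CPM) and the least subunit RNA (4499.9 CPM). In cKO iILC1, replicate 1 was at 1560.4 and 8835 CPM, and replicate 3 at 2926 and 4929 CPM. Control iNK replicate 3 departed from this, with 2466 CPM of receptor RNA and subunit RNA within the range of its group. The part of the background in the difference between cell types was not tested beyond the covariate fits.

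**Figure D4:**
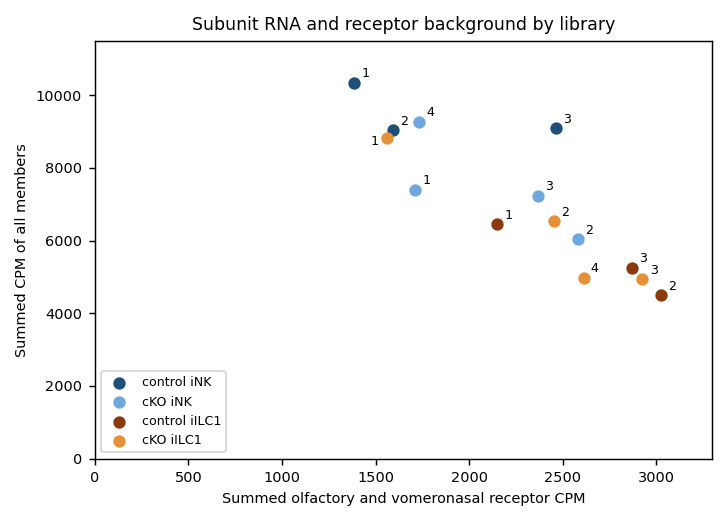
Summed CPM of all members (vertical axis) against summed CPM of the receptor genes (horizontal axis) in the 14 libraries, coloured by group and numbered by replicate; both axes start at 0. Points fall from upper left to lower right, and control iNK replicate 3 (2466 CPM) lies above the other libraries with a similar receptor sum.

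In cKO mice, Cox6a2 was the 1 member called between the cell types, where 3.42% of all genes were called. The members' median was −0.20, against 0.01 over all genes, and 73 of 83 estimates were negative, as were 61.6% of genes of at least 20 CPM. The median moved to −0.04 when cKO iNK replicate 4 was left out, to −0.10 or −0.11 when cKO iILC1 replicate 3 or replicate 4 was, and to −0.37 when cKO iILC1 replicate 1 was. The last of these fits had a median of 0.06 over all genes. The fit without both libraries that lay apart had a median of −0.41, against 0.03 over all genes. The size of the members' median difference between the cell types in cKO mice therefore depended on single libraries. These 2 fits had 31 and 33 members at an unadjusted p below 0.05, beside 2 with all libraries. The share of all genes at that p was not counted in them. After adjustment both called Cox6a2 alone, where 2.38% and 2.37% of all genes were called lower. The libraries did not overlap for 2 members, both lower in iILC1, where this held for 3.08% of all genes. Medians by complex were −0.15 for complex I, −0.20 for complex II, −0.23 for complex III, −0.24 for complex IV and −0.26 for complex V. The second smallest p belonged to Cox7a2l, at −0.50 (SE 0.205, adjusted p = 0.318). Ndufs6, called in control mice, was at 17.3, 23, 26 and 37 CPM in cKO iNK and at 35.5, 23.9, 16.9 and 14.9 CPM in cKO iILC1, so that the groups overlapped.

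Cox6a2, the isoform of subunit 6a known from heart and skeletal muscle (chromosome 7, 128205436 to 128206366, minus strand), was higher in iNK than in iILC1 in both genotypes. It was at 17.6, 10.6 and 12.2 CPM in control iNK and at 18.8, 12.5, 27.2 and 42.3 CPM in cKO iNK. In control iILC1 it was at 1.46, 1.79 and 0.916 CPM and in cKO iILC1 at 1.7, 2.08, 0.636 and 0.254 CPM. Every iNK library was above every iILC1 library. The log2 fold change of iILC1 against iNK was −3.28 (SE 0.528, adjusted p = 0.000266) in control and −4.39 (SE 0.437, adjusted p = 3.11e-08) in cKO mice. The call held in 18 of 18 alternatives in control and 20 of 20 in cKO mice, with estimates of −2.55 to −3.70 and −4.01 to −4.80. The iILC1 counts were 5, 9 and 5 in control and 14, 17, 4 and 2 in cKO libraries, so the fold is set by few counts.

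Cox6a2 lies inside the span of Itgad, an integrin gene on the other strand, and 69 of its 658 exon bases are shared with exons of Itgad. Itgad averaged 62.1 ± 13.7 CPM (n = 3, SD) in control iNK and 42.7 ± 1.79 CPM (n = 3, SD) in control iILC1, a log2 fold change of −0.54 (adjusted p = 0.187). In cKO mice it was lower in iILC1, at 40.9 ± 8.46 CPM (n = 4, SD) against 81.8 ± 13.4 CPM (n = 4, SD) in iNK (adjusted p = 0.00177). Neither library kit marks strand, and the share of Cox6a2 counts that came from Itgad transcripts was not tested. The common isoform Cox6a1 was at 146, 107 and 120.4 CPM in control iNK and at 68.1, 45.9 and 57.7 CPM in control iILC1 (−1.12, SE 0.305, adjusted p = 0.0336). In cKO mice it was at 71.7, 58.1, 80.7 and 109.5 CPM in iNK and at 121, 75.7, 41.4 and 47.7 CPM in iILC1, with full overlap. Per kilobase of exon, Cox6a2 stood at 20.5 and Cox6a1 at 177 CPM per kb in control iNK, and at 38.3 and 114 CPM per kb in cKO iNK.

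**Figure D5:**
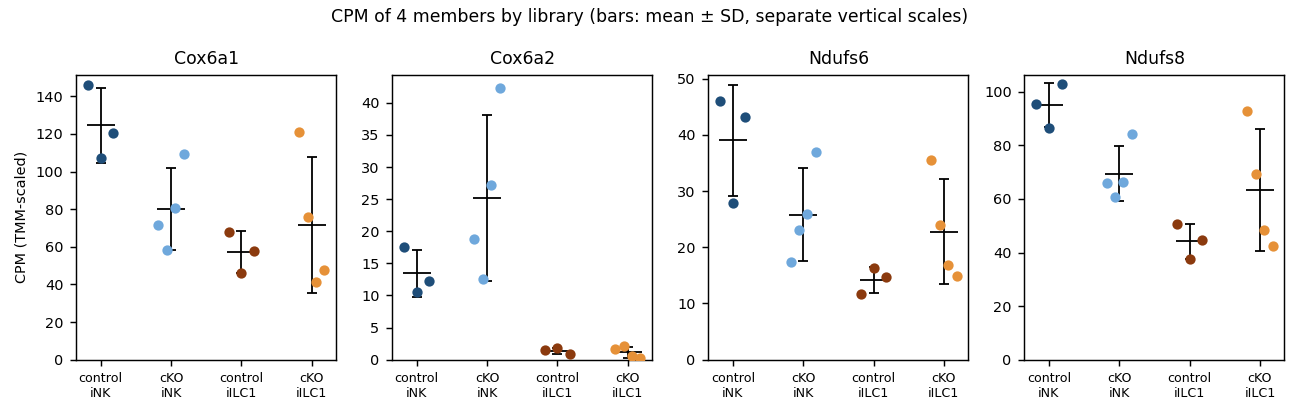
TMM-scaled CPM (vertical axes, from 0 and scaled separately) of Cox6a1, Cox6a2, Ndufs6 and Ndufs8 in each library by group; points are libraries and bars the mean ± SD. Cox6a2 is at 2.08 CPM or less in all 7 iILC1 libraries and at 10.6 CPM or more in all 7 iNK libraries, while the other genes overlap between cell types in cKO mice.

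Between genotypes no member passed the test in iNK cells, where 0.408% of all genes were called. The members' median was −0.33 in cKO iNK against 0.06 over all genes and −0.13 over genes of at least 20 CPM, and 74 of 83 estimates were negative, as were 71% of those genes. The median was −0.20 without control iNK replicate 1, where 3 members had an unadjusted p below 0.05, −0.21 with the receptor covariate and −0.16 with total counts only. The share of all genes at that p was not counted in the fit without that library. With all libraries edgeR had 11 members lower and 2 higher at an unadjusted p below 0.05, where 8.96% of genes of at least 20 CPM were lower and 2.10% higher, and DESeq2 called 0 after adjustment. The libraries did not overlap, with cKO lower, for 14 of 83 members, against 4.75% of all genes and 10.6% of genes of at least 20 CPM. The smallest adjusted p was that of Cox5a, 0.428, with 53.6, 33.1 and 47.2 CPM in control iNK and 23.2, 25.7, 22.9 and 38.8 CPM in cKO iNK (log2 fold change −0.68, SE 0.252). Its ranges overlapped through cKO replicate 4. The lowest estimates by complex were those of Ndufa1 (−0.71), Sdhb (−0.46), Uqcrh (−0.44), Cox5a (−0.68) and Atp5e (−0.71). The highest were those of Ndufb2 (0.51), Sdha (−0.13), Cyc1 (−0.12), Cox6a2 (0.91) and Atp5s (0.37), with adjusted p of 0.544 to 0.929. Marker sums of other cells also differed here: 6 erythroid genes summed to 5.89 to 42.8 CPM in control iNK and 75 to 559 CPM in cKO iNK, and 8 genes of B and plasma cells to 36.2 to 54.5 and 167 to 232 CPM. The progenitor genes Kit and Cd34 summed to 64.1 to 144 and 149 to 199 CPM, with Kit at means of 90.7 and 166 CPM. Their part in the members' values was not tested.

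In iILC1 cells no member passed between genotypes either, where 0.0482% of all genes were called. The members' median was 0.27, against 0.01 over all genes and 0.14 over genes of at least 20 CPM, and 78 of 83 estimates were positive, as were 76.1% of those genes. The median was 0.08 without cKO iILC1 replicate 1, 0.09 without both libraries that lay apart, 0.14 with the receptor covariate, 0.15 with total counts only and 0.44 without control iILC1 replicate 1. In edgeR 4 of 83 members had an unadjusted p below 0.05, all higher in cKO, where 4.97% of genes of at least 20 CPM were, and DESeq2 called 0 after adjustment. The libraries did not overlap, with cKO higher, for 0 members, against 2.66% of all genes. Ndufa5, a complex I subunit, was at 13.2, 8.15 and 7.88 CPM in control and at 22.6, 22.9, 9.86 and 13.5 CPM in cKO iILC1 (0.85, SE 0.344, adjusted p = 0.979). Its cKO libraries spread across and above the control range. Cox7a2 (0.76), Sdhc (0.42), Uqcrb (0.51) and Atp5k (0.85) had the highest estimates of their complexes, and Ndufb3 (0.02), Sdhb (0.07), Cyc1 (0.16), Cox8b (−1.12) and Atp5e (−0.03) the lowest. All members had adjusted p of 0.979 or more in this comparison. From control to cKO iILC1, 7 myeloid genes summed to 37.7 to 46.2 and 59.8 to 191 CPM, the progenitor genes to 143 to 214 and 229 to 306 CPM, and 5 ILC1 genes to 770.2 to 1232 and 1359 to 2349 CPM, each without overlap. The sums of the 6 T-cell genes overlapped, at 552 to 917 and 464 to 928 CPM. Their means were 55.9 and 27.5 CPM for Cd3d, 64 and 27.5 CPM for Cd3e and 64.1 and 29.1 CPM for Cd3g. Trac averaged 45.9 and 16.7 CPM, Trbc1 339.6 and 384 CPM and Trbc2 175 and 175 CPM. The part of these cells in the members' values was not tested.

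The genotype effect in iILC1 minus that in iNK was positive for 77 of 83 members, with a median of 0.61 against −0.03 over all genes and 0.30 over genes of at least 20 CPM. No member passed, where 0.0778% of all genes were called. In edgeR 24 of 83 members had an unadjusted p below 0.05, all positive, where 3.42% of all genes and 7.99% of genes of at least 20 CPM were, and 82% of the latter had positive estimates. In this comparison DESeq2 called 0 after adjustment. The smallest adjusted p was that of Ndufs6, 0.587, with an interaction of 1.26 (SE 0.411). Medians by complex were 0.59, 0.54, 0.60, 0.79 and 0.68 for complexes I to V. The interaction and the comparison between cell types in control mice use the same control libraries, so that one does not support the other. Without both libraries that lay apart the median was 0.28, with 5 members at an unadjusted p below 0.05, and without cKO iILC1 replicate 1 it was 0.37, with 8. With the receptor covariate it was 0.33, with 10, and without control iNK replicate 1 it was 0.50, with 6. Over all genes the median lay between −0.07 and −0.02 in these fits. The share of all genes at an unadjusted p below 0.05 was not counted in them.

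Genes that serve the same complexes from outside the list were examined as well. The 13 subunits encoded in mitochondrial DNA had 0 called genes in edgeR in all 5 comparisons. Between cell types in control mice 3 of them (23.1%) were lower at an unadjusted p below 0.05, where 31.8% of genes of at least 20 CPM were. In the other comparisons 0 were at that p. Between the cell types in control mice their estimates were all negative, with a median of −0.41, where genes outside the list of at least 20 CPM had 81.9% negative and a median of −0.36. They include mt-Co1, the catalytic subunit of complex IV, at 3912 ± 702 CPM (n = 3, SD) in control iNK and 2993 ± 606 CPM (n = 3, SD) in control iILC1 (−0.39). Others had far fewer counts, such as mt-Co2 (15.2 and 11.6 CPM), mt-Nd3 (5.5 and 4.32 CPM), mt-Atp8 (2.65 and 0.955 CPM) and mt-Nd4l (1.59 and 1.33 CPM). Genes of at least 20 CPM are therefore not matched to these subunits in level. Of 45 assembly factors 42 were tested, and 2 were lower in control iILC1, Uqcc3 of complex III (−1.12, adjusted p = 0.0453) and Atpaf2 of complex V (−0.93, adjusted p = 0.0295). The median of the assembly factors was −0.33, beside −0.36, with 7.58% called lower, over genes of at least 20 CPM. Several factors lay under that level in control iNK and iILC1, such as Cox11 (4.99 and 4.87 CPM), Ndufaf2 (3.08 and 2.82 CPM) and Pet100 (2.92 and 1.62 CPM). That background is therefore not matched to the list in level.

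Of 4 carriers of electrons and ATP, 2 were lower in control iILC1. Slc25a4, an exchanger of ADP and ATP across the inner membrane, averaged 133 ± 12.8 CPM (n = 3, SD) in control iNK and 59.9 ± 17.1 CPM (n = 3, SD) in control iILC1 (−1.16, SE 0.257, adjusted p = 0.00796). It was also lower in cKO iILC1, at 55.3 ± 17.7 CPM (n = 4, SD) against 98.7 ± 17.1 CPM (n = 4, SD) in cKO iNK (−0.84, SE 0.22, adjusted p = 0.0257). Slc25a5, a second exchanger, had −0.91 (adjusted p = 0.0348) in control mice, and Cycs, cytochrome c, −0.44 without passing. Of 16 genes of pyruvate dehydrogenase and the citric acid cycle, Suclg2 was lower in control iILC1 (−0.91, adjusted p = 0.0225), and all 16 estimates were negative, beside 7.58% called lower and 81.9% negative among genes of at least 20 CPM. Of 13 regulators of mitochondrial genes 0 passed in edgeR in this comparison. At an unadjusted p below 0.05, 4 of them (30.8%) were lower, near the 31.8% of genes of at least 20 CPM. Of the regulators, Ppargc1b (14.9 and 16.6 CPM in control iNK and iILC1) and Tfb1m (11.2 and 8.36 CPM) lay under that level. Nrf1 itself had an estimate of −0.30 (adjusted p = 0.419), and Tfam, which packages mitochondrial DNA, one of −0.60 (adjusted p = 0.19). In the other comparisons no gene of these lists other than Slc25a4 passed.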

How the data were processed

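The authors deposited unnormalized read counts for each Ensembl gene, per the file headers. The submitters' processing notes list HISAT2 2.1.0, Trimmomatic 0.33, Subread 1.6.5 with featureCounts, and mm10. Annotation release, strandedness and the treatment of multimapping reads are not given in the sources used here. Libraries were made with SMART-Seq v4 and Nextera XT, per the labels' protocols. Symbols were matched for 45143 of 46078 identifiers (97.97%).

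Counts were fitted in edgeR 4.0.16 (R 4.3.3) with TMM factors, filterByExpr (minimum count 10, minimum total 15) and the quasi-likelihood F test, in 1 fit of all 14 libraries with a mean for each group. This left 26990 genes and 10 residual degrees of freedom. SE was derived from the F statistic. The coefficient of variation was 30%. Alternatives used DESeq2 1.42.0 and limma 3.58.1, and the fit was tested on simulated data. No replicate pair agreed within sampling noise (chi-square divided by its degrees of freedom, 4.97 to 27.1).

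The members and lists were chosen with earlier results of these data known. Named genes were the called members (at most the 5 with the smallest p in full), the highest and lowest estimate and the 2 highest levels per kilobase of each complex, core subunits, isoform families and members that failed the filter. Some genes that this rule names are not reported here. The linear receptor covariate, the cyclic loess fit and the background of genes of at least 20 CPM were added after seeing the data.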

Additional observations from a re-analysis of the deposited data

Results flagged for a closer look

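In 88 sets of 4 libraries, each a named member in 1 cKO group, the library farthest from the others was checked with Dixon's ratio, which by chance marks about 1 set in 20. It marked 5. In cKO iNK, replicate 4 stood above the others for Atp5g3 (220.3 CPM, the others at 140.0 to 152 CPM), Cox8a (185 CPM, the others at 91 to 96.4 CPM), Ndufb11 (79.8 CPM, the others at 47.1 to 51.5 CPM) and Ndufc2 (40.6 CPM, the others at 25.4 to 27.9 CPM). This library had the most counts, 12572326. In cKO iILC1, replicate 1 stood above the others for Sdhc (67.8 CPM, the others at 30.00 to 34.3 CPM).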

How the results depend on the processing

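Calls between cell types in control mice changed most. Against 25 members, DESeq2 and the fit with the replicate block both called 56, the fit of only the groups compared 49 and no filter on low counts 43. A mean of at least 5 CPM called 39, total counts only 13, cyclic loess 5, the linear receptor covariate 4 and the log2 receptor covariate 3. Fits without 1 library called 2 to 36. The share of all genes tested that was called lower changed as well, from 3.00% in the reported fit. It was 6.58% with DESeq2, 6.14% with the replicate block, 5.94% with only the groups compared and 2.38% with no filter. With at least 5 CPM it was 7.27%, with total counts 1.89%, with loess 1.60%, and with the linear and log2 covariates 1.74% and 1.78%. Without 1 library it was 0.875% to 3.79%. The members' median of −0.86 became −0.53 with total counts only, −0.49 with the log2 covariate and −0.43 with the linear one. A mean of at least 5 CPM called 2 members lower between cell types in cKO mice, where 4.08% of all genes in that fit were. The interaction's median became 0.31 with the linear covariate, 0.30 with total counts only and 0.28 without both libraries that lay apart. With nuclear protein-coding counts as the denominator, the members' share was 0.877% in control iNK and 0.63% in control iILC1. Of all counts these shares were 0.828% and 0.588%. The replicate numbers were not taken to pair the samples, since the labels do not say that they do. Of 14 libraries, 6 correlated best with a library of their own number. The number expected by chance was not computed, so this does not decide whether the samples pair. The cause of these changes was not tested.

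Estimates that changed sign were those of uncalled members. For genotype in iNK, Cyc1 (−0.12) became 0.06 with loess, 0.04 with total counts and −0.19 to 0.02 without 1 library, and Sdha (−0.13) became 0.14, 0.03, 0.04 and 0.05 with loess, the linear covariate, the log2 covariate and total counts. For genotype in iILC1, Cyc1 (0.16) became −0.00 with loess, −0.02 without both libraries that lay apart and −0.02 to 0.30 without 1 library. Ndufb3 (0.02) became −0.06, −0.21, −0.17, −0.12, −0.11 and −0.22 with loess, the linear and log2 covariates, total counts, upper quartile factors and without both libraries. It was −0.10 with at least 5 CPM, −0.04 with only the groups compared, −0.04 with the replicate block and −0.22 to 0.21 without 1 library. Sdhb (0.07) became −0.10, −0.13, −0.11, −0.07, −0.06, −0.20 and −0.05 with loess, the linear and log2 covariates, total counts, upper quartile factors, without both libraries and with at least 5 CPM, and −0.21 to 0.25 without 1 library. Without 1 library Atp5e (−0.03) lay at −0.34 to 0.19 and Cox6a2 (−0.20) at −0.67 to 0.09. For cell type in control, Atp5s (−0.07) became 0.36 with either covariate, 0.30 with total counts, 0.18 with upper quartile factors and without both libraries, 0.14 with at least 5 CPM, 0.01 with only the groups compared and −0.28 to 0.18 without 1 library. Sdha (−0.38) became 0.17, 0.08 and 0.05 with loess and the linear and log2 covariates. For cell type in cKO without both libraries, Atp5g1 (0.09) became −0.06, Ndufa1 (0.11) −0.16 and Sdhc (0.12) −0.23, and without 1 library these lay at −0.02 to 0.24, −0.12 to 0.40 and −0.19 to 0.24. Cox7b2 (0.26) became −0.01, −0.10 and −0.08 with loess and the linear and log2 covariates, and −0.19 to 0.54 without 1 library. Uqcrb (−0.07) became 0.05 and 0.04 with the linear and log2 covariates, and −0.24 to 0.15 without 1 library. For the interaction, Atp5s (0.10) became −0.24, −0.25, −0.25, −0.11, −0.45 and −0.10 with the linear and log2 covariates, total counts, upper quartile factors, without both libraries and with at least 5 CPM, and −0.24 to 0.31 without 1 library. Cyc1 (0.28) became −0.06 with loess and −0.00 with total counts. Sdha (0.25) became −0.20, −0.07, −0.06 and −0.04 with loess, the linear and log2 covariates and total counts.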
